A study of Mus musculus with 2 samples.

Results

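The polyamine genes described here are 10 of the 34745 genes in the count table: Odc1, Amd1, Srm and Sms of synthesis, Smox, Sat1 and Paox of breakdown, and Oaz1, Oaz2 and Azin1 of the antizyme system. They were chosen by name, as the enzymes, antizymes and antizyme inhibitor of the pathway. Their values did not enter the rule, but earlier results of these data were known when it was set. RNA of gastrocnemius muscle, the large calf muscle, was sequenced from C57BL/6 mice aged 8 weeks, 1 library being of genotype Cry2flox/flox (Cry2flox, the control) and the other of genotype Cry2scko. Cryptochrome 2, the product of Cry2, is a repressor of the circadian clock, and the control carries the floxed allele. What scko stands for is not written out in the labels, which name no recombinase or promoter and do not tell if animals were pooled. Each genotype has 1 library and no replicate, so the comparison describes these libraries and no p-value is given.

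Putrescine, spermidine and spermine are small positively charged molecules that bind RNA and DNA and are needed for growth and translation. Ornithine decarboxylase makes putrescine, and decarboxylated S-adenosylmethionine then supplies the groups that turn it into spermidine and spermine. Cells hold polyamines within limits through antizymes, proteins that bind ornithine decarboxylase, deliver it to the proteasome and restrain polyamine uptake. In skeletal muscle several of these genes have been linked to fibre size, and polyamines are known to affect the period of the circadian clock.

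The antizyme gene Oaz2 was 2.12-fold higher in the Cry2scko library, and it was the 1 polyamine gene whose difference reached 2-fold. No polyamine gene was 2-fold lower. The ratios of Smox, Sat1 and Amd1 lay above 1 and those of Azin1, Oaz1 and Odc1 below 1, all by less than 1.5-fold. Those of Srm and Sms were close to 1, with a wide interval for Srm.

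A ratio is that of Cry2scko over Cry2flox throughout, computed from read counts scaled to library size (CPM). Its 95% interval is an exact counting interval (Clopper-Pearson). It covers counting error alone, and may understate even that, since PCR reads that carry no molecular identifiers are not independent molecules. The call rule asked for a ratio of at least 2-fold in either direction, an interval that excluded a ratio of 1, and a mean CPM of 1 or more. Of 12832 genes with that level, 3.37% were called higher and 1.51% lower. Among the polyamine genes 9 reached it, and 1 was called higher, 0 lower and 8 neither. This share rests on 1 gene, and the median log2 ratio of the 9 was -0.03, against -0.00 for all 12832 genes (quartiles -0.17 and 0.18). The interval alone, with no fold required, lay above a ratio of 1 for 4 of the 9 and below it for 3 of the 9. Over all genes these shares were 16.3% and 17.3%, counted from a mean CPM of 1 upward. An interval narrows as reads increase, so these shares are not matched to the read depth of the polyamine genes. Of the 10 polyamine genes, 8 had 324 or more reads in each library, so their intervals are narrow, and they say nothing of the spread between animals.

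The libraries held 18909433 reads (Cry2flox) and 16423884 reads (Cry2scko). Cry2 itself had 676 and 133 reads, with a log2 ratio of -2.16 (95% interval -2.44 to -1.89). The count pools all exons and does not separate deletion from lower expression. All 7 fast-fibre markers looked for were read in both libraries and summed to 116046 and 110998 CPM. No marker of the other cell types looked for was at 0. Slow-fibre markers summed to 1068 CPM in the control and 2385 CPM in the Cry2scko library, with 5 of 6 called higher, and lymphocyte markers to 33.3 and 90.1 CPM, with 6 of 6 called higher. The slow myosin gene Myh7 was at a log2 ratio of 1.27 and the fast myosin gene Myh4 at -0.14. Fibroblast and tendon markers summed to 716 and 468 CPM, with 2 of 5 called lower, and adipocyte markers to 30.9 and 18.3 CPM, with 1 of 3 called lower. In whole muscle, fewer cells of a type and less RNA per cell cannot be told apart, and the part of these shifts in the values of the polyamine genes was not tested.

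**Figure D1:**
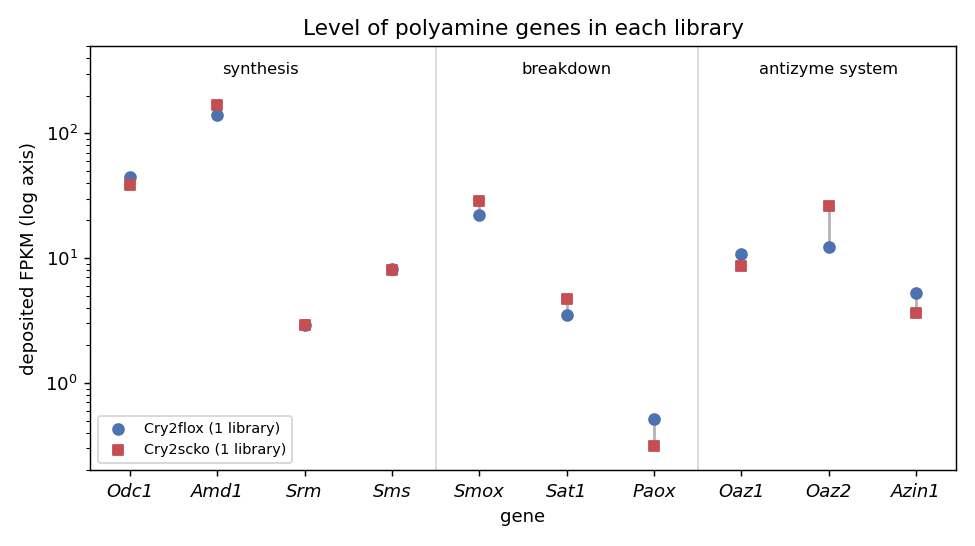
Deposited FPKM (log axis) of each of the 10 polyamine genes in the Cry2flox library (circles) and the Cry2scko library (squares), 1 library each, joined by a grey line and grouped by role. Amd1 is the most abundant in both libraries and Paox the least, and the widest gap is that of Oaz2, from 12.2 to 26.2 FPKM.

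Levels of different genes were compared per length, on the deposited FPKM scale (fragments scaled to gene length and library size). Amd1 had the highest level in both libraries, at 139 FPKM in Cry2flox and 167 FPKM in Cry2scko, followed by Odc1 at 44.7 and 38.3 FPKM and Smox at 22.2 and 28.8 FPKM. Paox had the lowest, at 0.518 and 0.314 FPKM. Amd1 exceeded 98.8% of the compared genes in Cry2flox and 98.9% in Cry2scko. For the polyamine genes, the lengths that the FPKM values imply are not the merged exon lengths of GENCODE M21. For Smox the implied length was 8892 bases against 3894 merged exon bases, and for Azin1 13735 against 6256. Scaled by the merged exon length, Smox came second in both libraries, at 51.1 and 65.3 CPM per kilobase, and Odc1 stood at 33.7 and 28.4. On that scale Oaz2, at 24.9 in the control and 52.9 in Cry2scko, lay below Odc1 in the control and above it in Cry2scko. Amd1 stayed first and Paox last on both scales.

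Among the enzymes of synthesis, none was called. Odc1, which makes putrescine and is the classic rate-limiting step (GRCm38 chromosome 12, 17544794 to 17551505, plus strand), was counted at 2152 reads (115 CPM) in the control and 1602 reads (96.9 CPM) in Cry2scko. The log2 ratio was -0.24 (-0.34 to -0.15), so the Cry2scko library was the lower one by less than 1.5-fold. Amd1, which decarboxylates S-adenosylmethionine (chromosome 10, 40287458 to 40302186, minus strand), was counted at 8413 reads (448 CPM) in the control and 8818 reads (533 CPM) in Cry2scko, which gives a ratio on the log2 scale of 0.25 (0.21 to 0.29). Odc1 and Amd1, the steps that feed the pathway, therefore lay on opposite sides of a ratio of 1. Amd1 reads relative to Odc1 reads were 1.41 times as high in Cry2scko (95% interval 1.31 to 1.51), a comparison that no library scaling can shift.

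The aminopropyl transferases had the ratios closest to 1. Spermidine synthase, Srm, had 107 control and 92 Cry2scko reads, with a log2 ratio of -0.03 (-0.45 to 0.38), and a difference was not detectable at this depth. Spermine synthase, Sms, had 1185 and 1008 reads at -0.05 (-0.17 to 0.07). On the FPKM scale Sms stood at 8.25 and 8.08 and Srm at 2.92 and 2.89. Relative to Srm reads, Sms reads were 0.989 times as high in Cry2scko (0.732 to 1.34), an interval too wide to show that their relation was unchanged.

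Among the enzymes of breakdown, none was called either. Spermine oxidase, Smox, which turns spermine back into spermidine (chromosome 2, 131491496 to 131525922, plus strand), was counted at 3736 reads (199 CPM) in the control and 4207 reads (254 CPM) in Cry2scko. The log2 ratio was 0.35 (0.29 to 0.42), a 1.28-fold difference. Sat1, the acetyltransferase that marks spermidine and spermine for oxidation or export, had 324 and 381 reads at 0.42 (0.20 to 0.64). Both ratios lay above 1, and 14.1% of all compared genes had a ratio at least as high as that of Smox and 11.8% one at least as high as that of Sat1. Paox, the peroxisomal oxidase of acetylated polyamines, had 19 control and 10 Cry2scko reads and lay under the mean CPM of 1. Its log2 ratio of -0.71 (-2.01 to 0.43) shows no difference detectable at this depth. Paox also shares 142 exon bases with Echs1 on the opposite strand, a mitochondrial enzyme with 973 and 890 reads, and strand use in the counting is not given in the sources used here. Relative to Odc1 reads, Smox reads were 1.51 times as high in Cry2scko (1.40 to 1.64).

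Antizymes are made only when the ribosome slips by 1 base at the end of a short first reading frame, a step that polyamines promote, so their mRNA level is 1 part of their control. The annotation carries this step as a gap of 1 base, the T of a TGA stop codon, at position 80828295 of chromosome 10 in Oaz1 and 65686272 of chromosome 9 in Oaz2. The coding bases around it are shown for both antizymes and for Oaz1-ps, an annotated processed pseudogene of Oaz1, because they show how alike these genes are where reads have to be told apart. The capitals mark the last sense codon and the stop codon of the first frame. The windows are chr10:80828265-80828327 (Oaz1, plus strand), chr9:65686242-65686304 (Oaz2, plus strand) and chr17:17345904-17345966 (Oaz1-ps, minus strand), on GRCm38, from GENCODE M21 transcripts.
Oaz1: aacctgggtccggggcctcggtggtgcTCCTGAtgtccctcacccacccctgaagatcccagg
Oaz2: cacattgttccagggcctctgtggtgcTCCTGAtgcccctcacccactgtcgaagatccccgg
Oaz1-ps: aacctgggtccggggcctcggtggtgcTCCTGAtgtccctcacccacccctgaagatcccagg
Oaz1 and Oaz2 share 51 of these 63 bases, whereas Oaz1 and its pseudogene share 63 of 63.

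Oaz2 (chromosome 9, 65668001 to 65690300, plus strand) was counted at 1399 reads (74.5 CPM) in the control and 2614 reads (158 CPM) in Cry2scko. Cry2scko was the higher library, at a log2 ratio of 1.08 (0.99 to 1.18), so the lower end of the interval lies just under 2-fold. Of all compared genes 2.75% had a ratio at least as high. From a mean CPM of 5 upward, a level that Oaz2 exceeds many times over, 1.83% of genes were called higher. Oaz2 encodes antizyme 2, a relative of antizyme 1 that likewise binds ornithine decarboxylase. Slow-fibre and lymphocyte markers were also higher in the Cry2scko library, and their part in the Oaz2 difference was not tested.

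Oaz1, the gene of the broadly expressed antizyme 1 (chromosome 10, 80826656 to 80829290, plus strand), was counted at 1101 reads (58.6 CPM) in the control and 767 reads (46.4 CPM) in Cry2scko. Its log2 ratio was -0.34 (-0.47 to -0.20), on the other side of a ratio of 1 from Oaz2. Relative to Oaz1 reads, Oaz2 reads were 2.68 times as high in Cry2scko (2.39 to 3.01). The antizyme counts together came to 2500 control and 3381 Cry2scko reads, with a log2 ratio of 0.62 (0.54 to 0.69). In FPKM, Oaz2 was at 12.2 and Oaz1 at 10.8 in the control, and at 26.2 and 8.69 in Cry2scko. These Oaz1 values leave out the reads given to its pseudogene.

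Azin1, which encodes an inactive relative of ornithine decarboxylase that captures antizymes (chromosome 15, 38487427 to 38519266, minus strand), was counted at 1353 reads (72.1 CPM) in the control and 814 reads (49.2 CPM) in Cry2scko. Its log2 ratio of -0.55 (-0.68 to -0.42) was the lowest of the 9 compared polyamine genes, and 5.66% of all compared genes had a ratio as low or lower. It did not pass the 2-fold rule. Oaz2 reads relative to Azin1 reads were 3.11 times as high in Cry2scko (2.78 to 3.47), and Odc1 reads relative to Azin1 reads 1.24 times as high (1.11 to 1.38). Azin1 shares 358 exon bases with the antisense gene Gm49077.

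**Figure D2:**
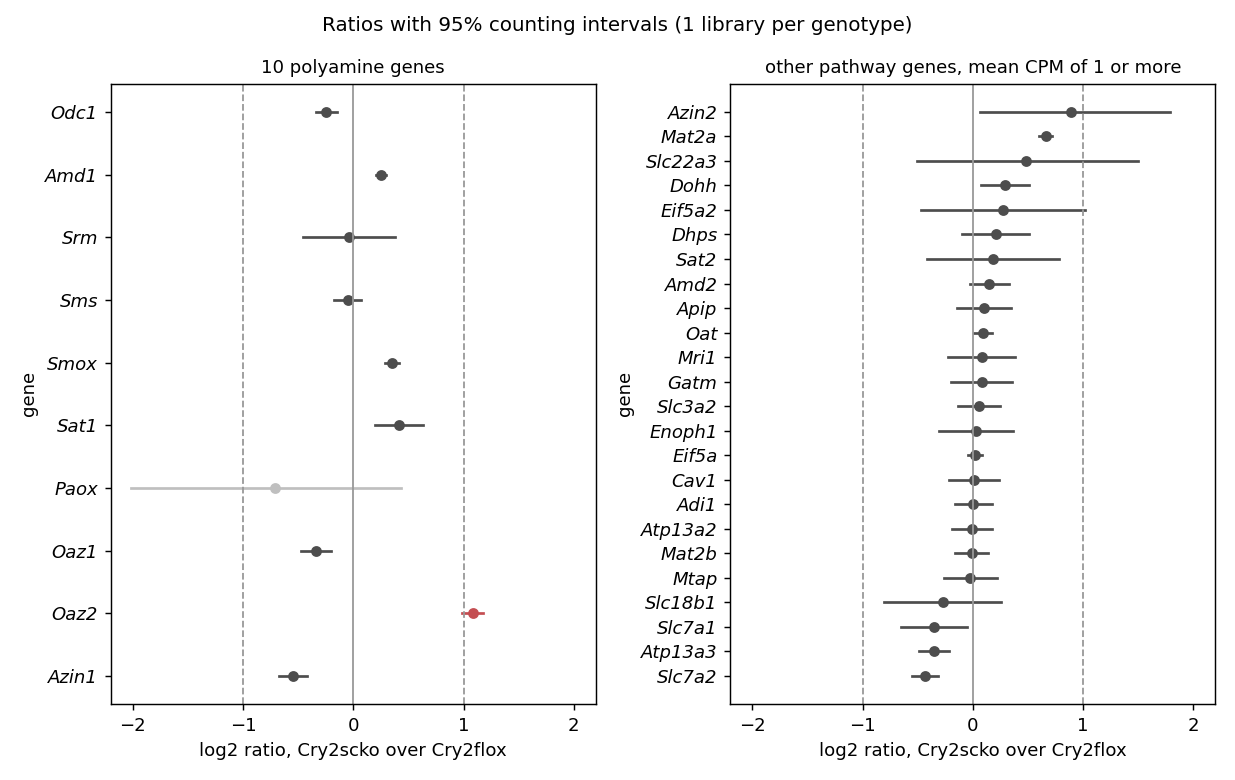
Log2 ratio of Cry2scko over Cry2flox (points) with its 95% counting interval (lines) for the 10 polyamine genes (left) and the 24 other pathway genes that were compared (right), with dashed lines at 2-fold. Oaz2 at 1.08 is the only gene beyond a dashed line (red), and Paox (light grey) did not reach a mean CPM of 1.

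**Figure D3:**
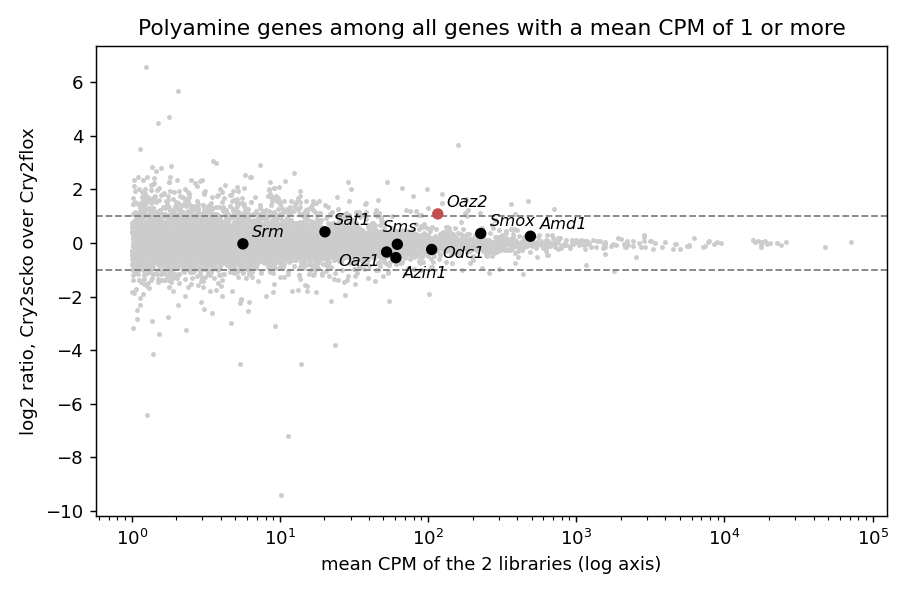
Log2 ratio of Cry2scko over Cry2flox against the mean CPM (log axis) for the 12832 compared genes (grey) and the 9 compared polyamine genes (black, with the called Oaz2 in red), with dashed lines at 2-fold. The polyamine genes other than Oaz2 lie within the grey band, and Oaz2 lies just above the upper line.

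Several of these genes have near-identical copies that can take or give reads. Oaz1-ps, 99.3% identical to Oaz1 over 685 bases, had 1310 control and 1203 Cry2scko reads, more than Oaz1 itself. Summed over both, the counts were 2411 and 1970, and the log2 ratio moved from -0.34 to -0.11 (-0.19 to -0.02). With copies summed for both antizymes, Oaz2 reads relative to Oaz1 reads were 2.18 times as high in Cry2scko (2.00 to 2.38), and the log2 ratio of both antizymes together was 0.44 (0.37 to 0.50). In the control, Oaz2 then had fewer reads than Oaz1 (1520 against 2411), and in Cry2scko more (2712 against 1970). The size of the Oaz1 value therefore depends on how reads were shared between the gene and its copy. Amd1 is 99.6% identical to the gene Amd2 over 3202 bases and 99.9% identical to the pseudogene Amd-ps3 over 1005 bases, which had 2767 and 2359 reads. With its 6 copies that have a row in the table Amd1 came to 12404 control and 12361 Cry2scko reads, and the log2 ratio moved from 0.25 to 0.18 (0.14 to 0.21). For Oaz2 the copy Oaz2-ps had 121 and 98 reads. The sums were 1520 and 2712, and the log2 ratio moved from 1.08 to 1.02 (0.93 to 1.11). This 2.03-fold difference still passed the rule, by a small margin. Another copy of Oaz2, Gm7543, has no row in the table and could not be summed. Odc1 summed with the 2 of its copies that have a row gave -0.24 (-0.33 to -0.14). The added reads, 93 and 77, were all from AW146154, a protein-coding gene. Most of the annotated copies of Odc1 have no row and could not be summed. These sums were added after the values had been seen.

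**Figure D4:**
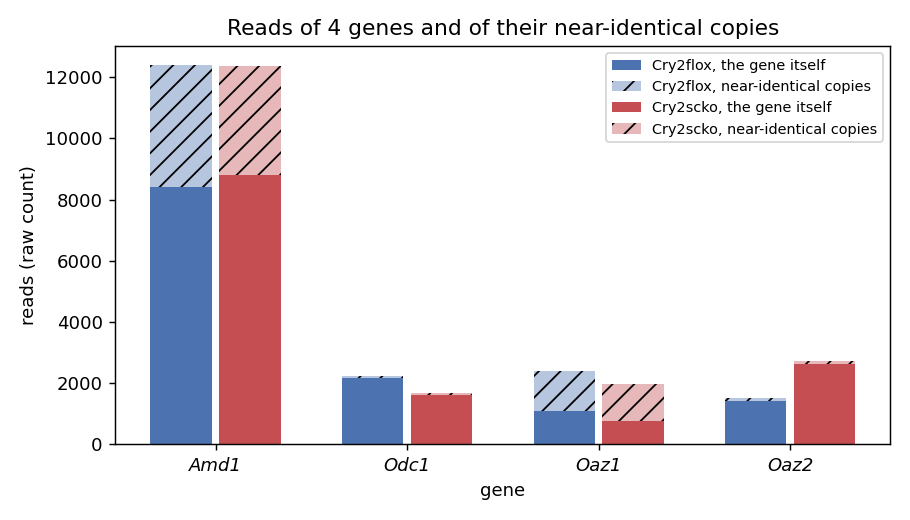
Raw reads of Amd1, Odc1, Oaz1 and Oaz2 (solid) in the Cry2flox (blue) and Cry2scko (red) libraries. Those of their near-identical copies that have a row in the count table are stacked on top (hatched). The copies hold 1310 and 1203 reads beside Oaz1 but only 121 and 98 beside Oaz2.

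None of the other genes of the pathway passed the rule. Of 30 listed, 24 reached the CPM minimum, and 0 were called higher and 0 lower, beside the 3.37% and 1.51% of all genes. Their median log2 ratio was 0.07. The interval alone lay above a ratio of 1 for 4 of the 24 and below it for 3. The shares of all genes, not matched for read depth, were 16.3% and 17.3%. The 4 above 1 were Mat2a, Azin2, Dohh and Oat. Mat2a, which makes the S-adenosylmethionine that Amd1 uses, had 3903 control and 5431 Cry2scko reads at 0.66 (0.60 to 0.72), the largest difference among the well-counted genes of the list. Azin2, the second antizyme inhibitor, had 20 and 33 reads at 0.89 (0.06 to 1.78). Both ratios lay above 1, on few reads in the case of Azin2. Mat2b, the regulatory partner of Mat2a, had 792 and 693 reads at -0.01 (-0.16 to 0.14). Arg1 and Arg2, the arginases that supply ornithine, had 0 reads in the control and 1 and 4 reads in Cry2scko, and Oaz3, the testis antizyme, had 0 reads in both. A count of 0 allows a level of up to 0.160 CPM (control) or 0.181 CPM (Cry2scko), so Arg1, Arg2 and Oaz3 were at or near the limit of detection. Sat2, a relative of Sat1, had 50 reads in each library at 0.18 (-0.41 to 0.78).

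Transport genes had a median log2 ratio of -0.14 over 8 compared genes. The 3 intervals below a ratio of 1 were all in this group, beside 17.3% of all genes, not matched for read depth. They were those of Slc7a2, an arginine and ornithine carrier, with 1519 control and 991 Cry2scko reads at -0.43 (-0.55 to -0.32), its relative Slc7a1 with 233 and 161 reads at -0.35 (-0.65 to -0.05), and the polyamine transport ATPase Atp13a3 with 1110 and 766 reads at -0.35 (-0.49 to -0.22). Atp13a2, the lysosomal polyamine exporter, was at -0.01 (546 and 479 reads). Spermidine is also used to form hypusine, a modified lysine of the translation factor eIF5A. Eif5a was at 0.02 (-0.05 to 0.08) on 4023 and 3588 reads and Dohh, the hydroxylase that completes hypusine, at 0.29 (0.07 to 0.51) on 340 and 366 reads. In methionine salvage, which recycles the by-product of spermidine and spermine synthesis, all 5 genes were compared and had a median of 0.03, with Adi1 at 0.01 on 648 and 573 reads and Mtap at -0.02 on 315 and 273 reads. Oat, which diverts ornithine to other uses, was at 0.09 (0.01 to 0.17) on 2679 and 2518 reads, and Gatm, which takes arginine into creatine, at 0.08 on 229 and 213 reads.

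Myc, a known activator of Odc1, had 80 and 70 reads at -0.01 (-0.49 to 0.47). It did not pass the rule, and Odc1 itself was at -0.24. Among clock genes, Dbp was at -2.18 and Per2 at -1.13, both called lower, Arntl, which encodes BMAL1, was called higher at 1.33, and Cry1 was at -0.55. The hour of collection is not given in the sources used here.

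Promoters of the members were examined, as planned for the whole list, for motifs of factors tied to the clock and to transcription starts. RefSeq windows from 250 bases before to 50 after a start (GRCm38.p6) matched 8 of the 10 genes, with 10 windows in all, and Srm and Azin1 had no entry. The motifs, searched on both strands, were the E-box CACGTG, the D-box TTATGTAA, the REV-ERB and ROR element and the TATA box TATAAA. The E-box was in 1 of the 10 windows, that of Sms, where it begins 196 bases before the start, and 7.15% of all 32851 windows hold one. The TATA box letters were in the Oaz1 window, across the start itself, beside 13.6% of all windows. The D-box and the REV-ERB and ROR element were in none of the 10 windows, beside 0.938% and 0.219% of all windows. The bases before the RefSeq start of Oaz2 are given because it was the called gene. Its window held none of the 4 motifs, so no capitals are used, and its position is chr9:65676298-65676547, plus strand. The window lies inside the gene as GENCODE M21 draws it, which begins at 65668001, and the bases before that upstream start were not searched. The Paox and Smox windows, and the Sms window without the E-box, likewise lie inside their genes as drawn there.
Oaz2 promoter: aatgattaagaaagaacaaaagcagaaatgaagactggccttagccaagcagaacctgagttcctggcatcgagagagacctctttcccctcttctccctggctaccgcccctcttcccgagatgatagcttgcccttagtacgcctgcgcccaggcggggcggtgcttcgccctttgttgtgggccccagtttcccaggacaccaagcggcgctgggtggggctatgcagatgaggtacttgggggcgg
A match, or the lack of one, describes letters in this window only.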

How the data were processed

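The deposited count table gives raw whole numbers by Ensembl gene, and the deposited FPKM values come in a file for each library, per the file headers. The submitters' processing notes name CASAVA, StringTie 1.3.0, HISAT2 2.0.4 and the build GRCm38. The read counter, annotation release and strand setting are not given in the sources used here. Counts and deposited FPKM implied the same gene length in both libraries within 0.1 percent for 100% of 16284 genes.

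Symbols and positions came from GENCODE M21 (GRCm38), and 34267 of 34745 identifiers had a symbol. Scaling used the TMM factors of edgeR 4.0.16 (R 4.3.3), and the log2 ratio was taken after 0.5 reads were added. At 1 CPM a gene has 18.8 control and 16.5 Cry2scko reads, and the limit for 0 reads takes 3 reads per library. Intervals of a ratio between 2 genes are exact conditional intervals of the odds ratio. BLAST 2.17.0 searched the annotated transcripts for near-identical copies (identity of 90% or more over 200 bases or more; 1000 bases for Paox). The procedure was tested on simulated data that held counting error alone. That test does not cover the spread between animals or the sharing of reads between copies. Python 3.11.15 with numpy 2.4.6, scipy 1.17.1, pandas 2.3.3 and matplotlib 3.10.9 was used.

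The members, lists and rules were chosen with earlier results of these data known. The rule for named genes takes Cry2, all 10 members, pathway genes past the rule or otherwise the 2 with the most reads in each group, and 7 context genes; a planned context gene is not reported here. Others were named after their values were seen: Azin2, Arg1, Arg2, Slc7a1, Atp13a2 and the copies. A planned comparison of protein sequences was not made. Alternatives were other scalings (total counts, totals that leave out mitochondrially encoded and the 20 most abundant genes, and size factors of DESeq2 1.42.0), FPKM with 0.1 added, 5 reads added, no filter, a minimum mean CPM of 5, and a fold of 1.5.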

Additional observations from a re-analysis of the deposited data

How the results depend on the processing

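No paired analysis was possible because there is 1 library per genotype, and for the same reason no library could be left out. Oaz2 was called higher under each of the 8 alternatives listed with the methods, and no other polyamine gene was called under any of them. Dropping the filter, a minimum mean CPM of 5 and a fold of 1.5 could not have changed the Oaz2 call. Under those of the 8 that change the ratio, its log2 ratio ran from 1.08 to 1.11. With the reads of its copy Oaz2-ps summed, which was not among the 8, it was 1.02 (0.93 to 1.11), close to the 2-fold limit. All 10 polyamine genes kept the sign of their ratio under the 3 other scalings, FPKM and 5 reads added. A fold threshold of 1.5 added 2 of the other pathway genes as higher, Azin2 and Mat2a, against 0. Over all genes, 432 higher and 194 lower became 789 and 396 without a filter, 175 and 76 at a minimum mean CPM of 5, and 842 and 558 at a fold of 1.5, by construction. FPKM with 0.1 added gave 312 higher and 116 lower, and 5 reads added gave 365 and 147. Total-count scaling, which the FPKM setting shares, gave 450 and 180. A larger added constant shrinks the ratios of genes with few reads, so these smaller counts also follow from the settings. Among the polyamine genes, the fewest reads and the widest intervals were those of Paox and then Srm.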

Other observations

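The 10 polyamine genes together made up 0.105% of control reads and 0.124% of Cry2scko reads, and Amd1 alone gave 8413 of their 19789 reads and 8818 of their 20313. The log2 ratio of the summed counts was 0.22 (0.19 to 0.25). Reads of Amd1 relative to Amd2 were 1.07 times as high in Cry2scko (0.947 to 1.22). Because these genes are 99.6% identical, how reads were split between them is uncertain, and this value may reflect that split.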
